A study of Mus musculus with 6 samples.

Results

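The genes described here are those of sphingolipid metabolism: the enzymes that make, remodel and break down ceramide and sphingomyelin, the enzymes of sphingosine 1-phosphate, and 3 of its receptors. The 37 members were chosen by their role in the pathway while the log2 differences between these same arrays were known, so their differences and p-values serve as a description. A gene was read from the probe set whose annotation gives that single symbol, and among several probe sets from the one selected on the highest mean log2 intensity over all arrays. This gave 36 of the 37 genes among 21996 named genes on the array. Cers1 has no value, because its probe set also carries the symbol Gdf1.

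Transcript levels were read with one-dye Affymetrix Mouse Gene ST arrays from biotin-labelled total RNA of C3H10T1/2 adipocytes, which derive from a mouse mesenchymal stem cell-like line that forms fat cells in culture. The 3 Zc3h10 shRNA cultures received an adenovirus with a short hairpin RNA against Zc3h10, which encodes a zinc finger protein, and the 3 scramble cultures received the same kind of vector with a scrambled hairpin. All 6 cultures, described as biological replicates, carried adenovirus at a multiplicity of infection of 50 for 72 h and are labelled as 9 days differentiated. The comparison rests on 1 hairpin, driven by a U6 promoter, in 1 cell line, and asks which transcripts differ between cultures given that hairpin and cultures given the scrambled one.

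Sphingolipids are built on a long-chain base that serine palmitoyltransferase makes in the endoplasmic reticulum from serine and palmitoyl-CoA. Acylation of that base gives ceramide, which cells convert to sphingomyelin or glycosphingolipids, or break down through sphingosine to sphingosine 1-phosphate, a signalling lipid that leaves the pathway when sphingosine phosphate lyase cleaves it. In fat tissue ceramide is best known for opposing insulin signalling, and sphingosine 1-phosphate for acting on cells through G protein-coupled receptors.

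Median intensities of the 6 arrays lay between 15.6 and 16.1 units, and log2 values correlated at r of 0.992 to 0.994 within groups and 0.985 to 0.988 between them. The Zc3h10 signal was dim, with log2 means of 4.70 (Zc3h10 shRNA) and 5.04 (scramble), not far above the background limit of 4.37 given below. Zc3h10 itself read 25.2, 30.2 and 22.9 units in Zc3h10 shRNA cultures 1 to 3. Scramble cultures 1 to 3 read 25.9, 39.0 and 35.3 units. That difference of −0.34 ± 0.17 (log2, SE) had overlapping groups and did not pass (limma, adjusted p = 0.301; two-sided exact permutation p = 0.2, where 0.1 is the smallest possible), so lower Zc3h10 is not shown on these arrays and the groups are named by their labels. Of 10 adipocyte markers, 9 were lower in the Zc3h10 shRNA cultures at an adjusted p under 0.05 (limma), against 6.6% of all named genes. The 10 markers summed to 10026 to 11025 units in the Zc3h10 shRNA cultures against 18483 to 20496 units in the scramble cultures. Lep, the exception, did not pass and lay within the background range given below. The part of the adipocyte markers in the sphingolipid results was not tested. In such bulk RNA, fewer adipocytes and less RNA per adipocyte cannot be told apart. Of 9 mesenchymal progenitor or fibroblast markers measured, Fap (3.10-fold higher, adjusted p = 0.000658) and Pdgfrb (1.68-fold higher, adjusted p = 0.00722) rose and Pdgfra fell (1.58-fold lower, adjusted p = 0.00551, limma). Of all named genes, 5.51% rose and 6.6% fell. In the scramble cultures Fap (log2 mean of 3.55) lay under the background limit of 4.37, so its fold is uncertain. Cd34, Dpp4 and Pi16 lay under that limit in both groups. The list summed to 5553 to 5872 units in the Zc3h10 shRNA cultures against 5737 to 6432 units in the scramble cultures. Most of that sum was Postn, which did not pass (means of 3790 and 4053 units). The part of these markers was not tested either. Markers of macrophages (6) and endothelial cells (5) summed to at most 90.3 and 75.7 units in Zc3h10 shRNA cultures. In scramble cultures they summed to at most 92.2 and 76.4 units. By limma 0 changed at an adjusted p under 0.05 and 0 at an unadjusted p under 0.05. Of these markers, only Cd68 lay above the background limit given below.

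Sphingolipid genes moved in opposite directions within the ceramide synthases, the ORMDL regulators and the sphingomyelinases. The neutral sphingomyelinase gene Smpd3, the glucosylceramide synthase gene Ugcg, the ceramide synthase gene Cers6 and the receptor gene S1pr2 rose in the Zc3h10 shRNA cultures, as did Sptlc2, Ormdl1, Sgms2 and S1pr1. The alkaline ceramidase gene Acer2, the ceramide synthase gene Cers4, the lyase gene Sgpl1 and the regulator gene Ormdl2 fell, as did the acid sphingomyelinase gene Smpd1. In all, 8 of 36 genes rose and 5 fell at an adjusted p under 0.05 (limma over all probe sets), while of all named genes 5.51% rose and 6.6% fell. That makes 13 of 36 changed, against 12.1% of all named genes and 21.7% of those brighter than most olfactory and vomeronasal receptor genes, a set that is mostly silent outside sensory tissue and serves here as a background level. Because the list was drawn up with results known, these shares are descriptive. The median log2 change was 0.02 over the 36 genes and 0.01 over all genes, and the median size of change, regardless of sign, was 0.29 and 0.14.

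**Figure D1:**
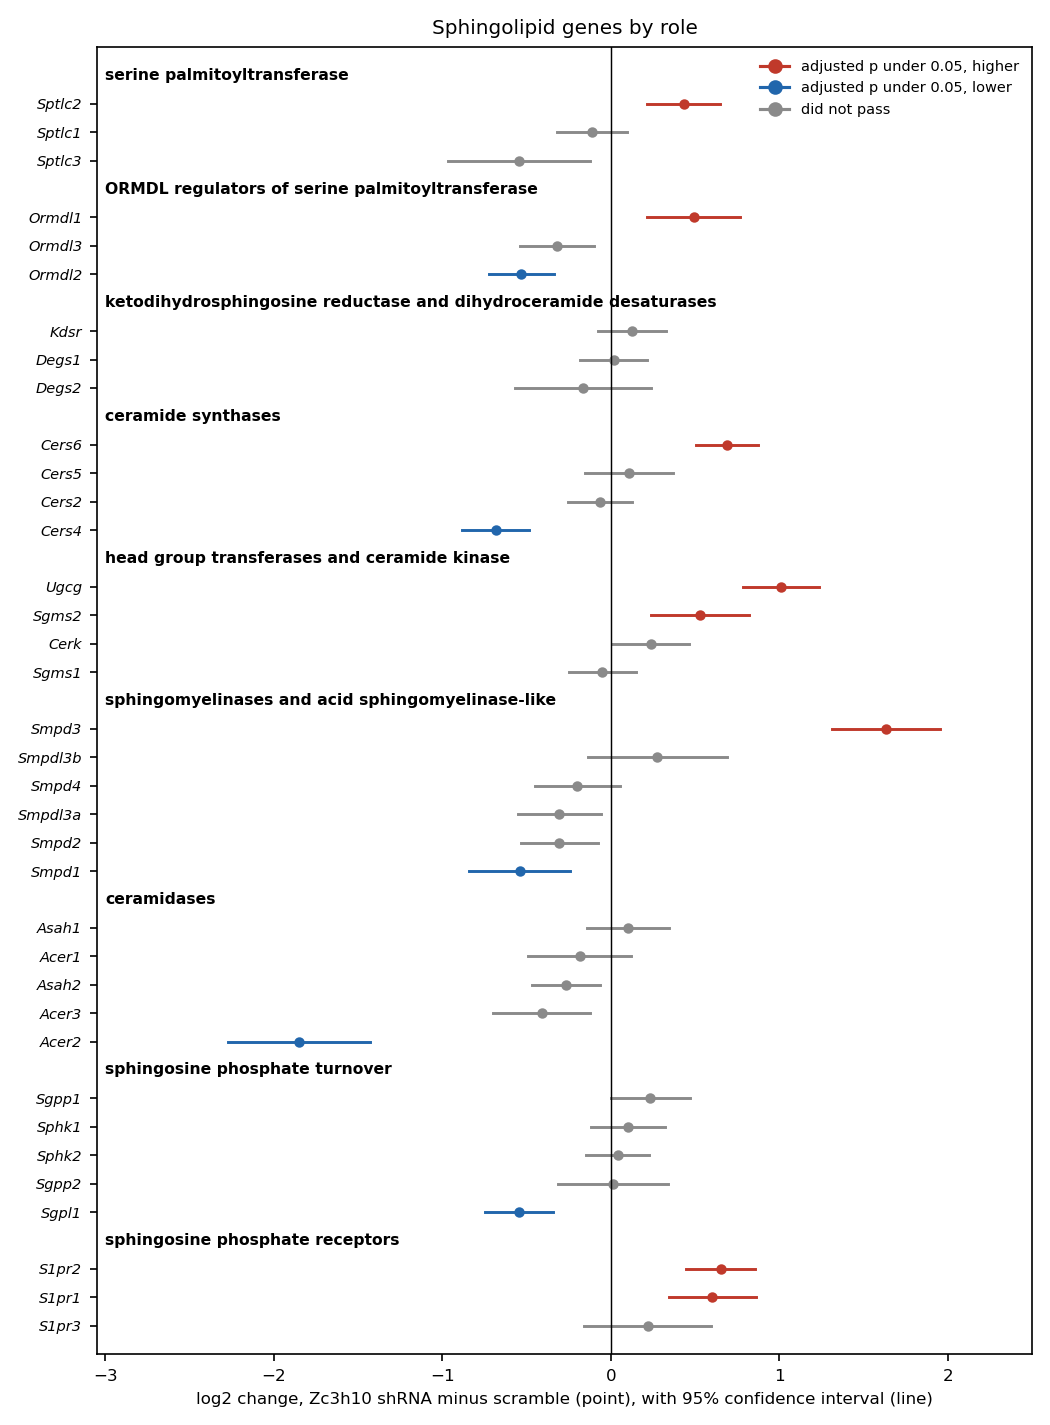
Log2 change (Zc3h10 shRNA minus scramble, horizontal axis) of the 36 measured sphingolipid genes, grouped by role, as points with 95% confidence intervals from limma. Red marks the 8 genes that rose, blue the 5 that fell and grey the 23 that did not pass, and values run from −1.85 (Acer2) to 1.63 (Smpd3).

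The intensities of the 3 Zc3h10 shRNA arrays lay wholly above or wholly below those of the 3 scramble arrays for 23 of the 36 genes, which was so for 31.9% of all named genes. All 13 changed genes were among the 23. The standard deviation of log2 intensity within a group ranged from 0.01 to 0.40 over the 36 genes in the Zc3h10 shRNA cultures (median 0.10) and from 0.02 to 0.36 in the scramble cultures (median 0.09). Degs2, Acer1 and Sgpp2 stayed under 4.37 on the log2 scale in both groups, the upper limit of the central 95% of receptor genes. None of these 3 genes passed, and at this signal a difference could be missed.

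**Figure D2:**
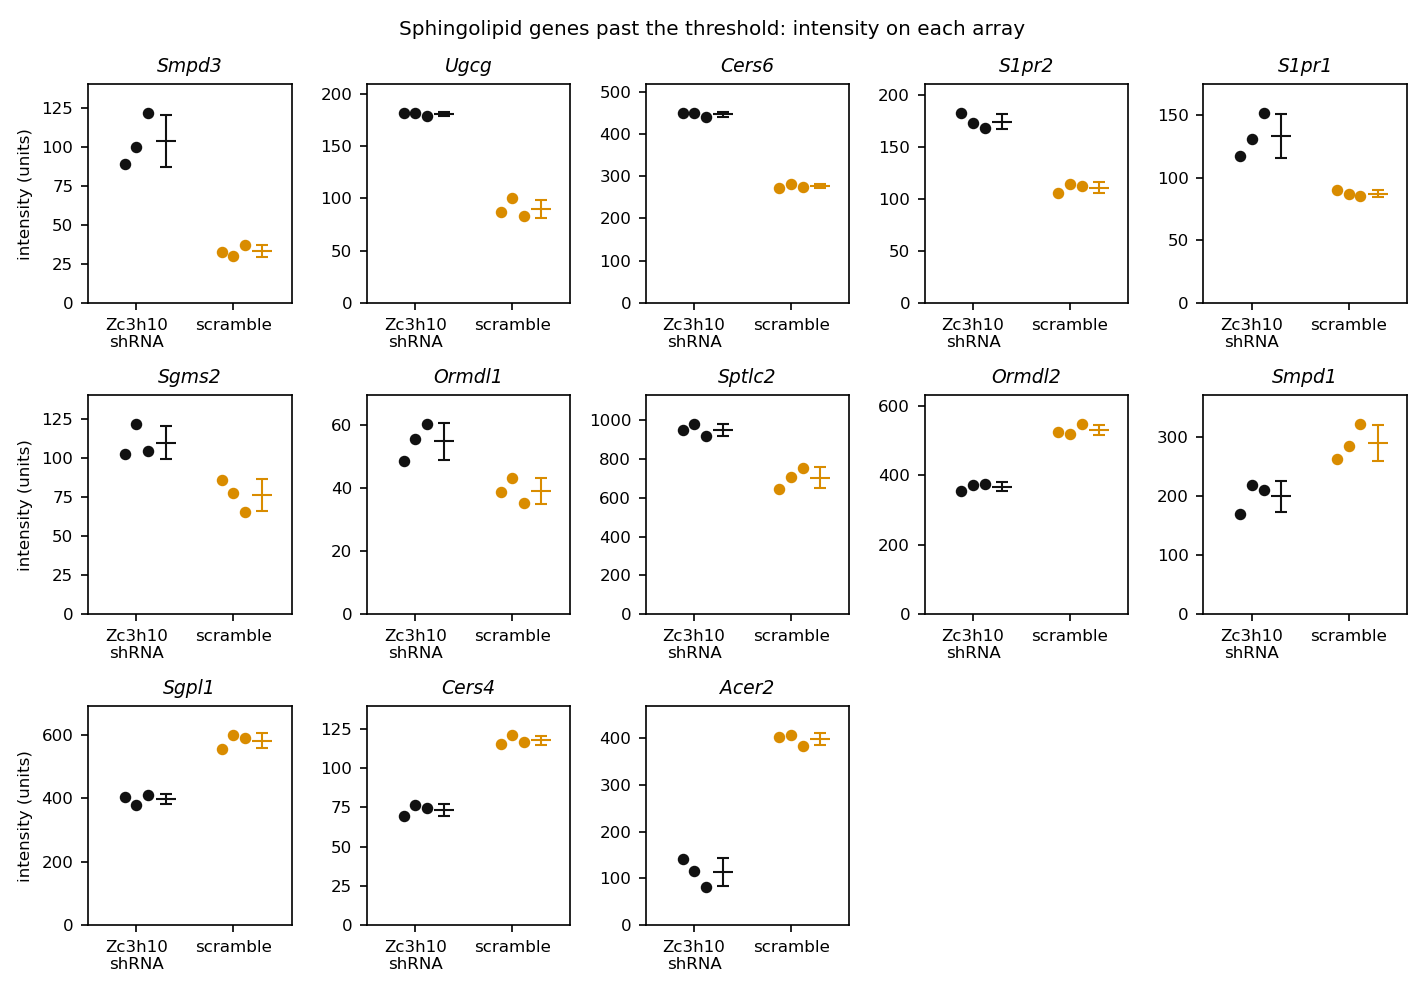
Intensity in units (vertical axes, starting at 0) on each array for the 13 sphingolipid genes past the threshold, ordered from the largest rise to the largest fall. Black points are the Zc3h10 shRNA cultures and orange points the scramble cultures, bars give the mean ± SD (n = 3 each), and in no panel do the points of the groups overlap.

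Whether genes of one step changed unequally was tested in 18 pairs with a two-sided exact permutation test of the per-array log2 ratio. In 14 pairs the ratios of the groups did not overlap, which gives an exact permutation p = 0.1, the smallest value that 3 against 3 arrays allow, and 0.129 after Benjamini-Hochberg adjustment over the 18 pairs. Among single genes, the groups did not overlap for 31.9% of all named genes, and no such share was computed for other pairs. The pairs were chosen with earlier results of these data known, so the count of 14 is descriptive. No pair could pass 0.05 in this design. Pairs are therefore given by their sizes (first gene minus second), which were −0.58 ± 0.21 for Smpdl3a and Smpdl3b, −0.37 ± 0.14 for Asah2 and Asah1, −0.58 ± 0.16 for Sgms1 and Sgms2, −0.98 ± 0.21 for Sptlc3 and Sptlc2 and −0.43 ± 0.22 for S1pr3 and S1pr2. The ratios overlapped for Sgpp1 and Sgpp2 (0.22 ± 0.13) and for Degs2 and Degs1 (−0.18 ± 0.21), as for the kinases and for S1pr1 and S1pr2. Other pairs follow with their genes.

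**Figure D3:**
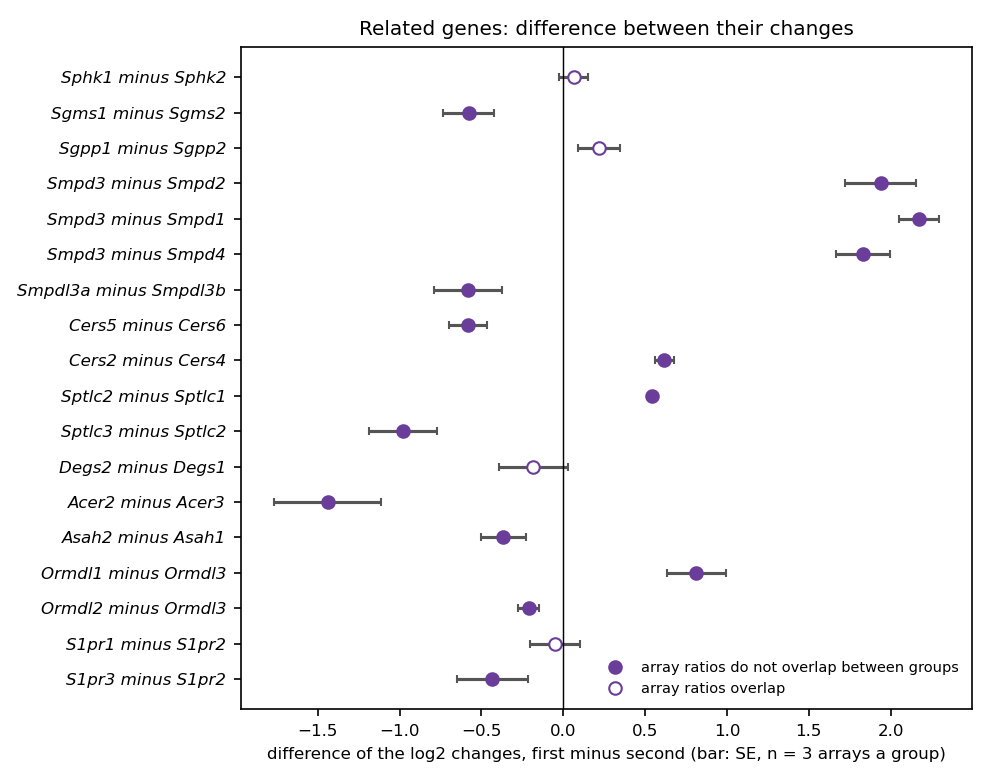
Difference between the log2 changes of 18 pairs of related sphingolipid genes (horizontal axis, first gene minus second), with the SE of the per-array log2 ratio. Filled points mark the 14 pairs whose ratios do not overlap between Zc3h10 shRNA and scramble arrays, with the largest values for Smpd3 against the other sphingomyelinases.

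At the head of the pathway, 1 of the 3 subunit genes of serine palmitoyltransferase rose. The enzyme pairs Sptlc1 with a catalytic partner, Sptlc2 or Sptlc3. Sptlc2 read 948, 981 and 917 units in the Zc3h10 shRNA cultures against 648, 708 and 755 units in the scramble cultures, a rise of 0.43 ± 0.09 (1.35-fold, limma adjusted p = 0.0245). Sptlc1 read 169.9, 169 and 162 units in the Zc3h10 shRNA cultures against 169, 179.9 and 193 units in the scramble cultures and did not pass (−0.11 ± 0.09, adjusted p = 0.558), with overlapping groups. Per-array ratios of Sptlc2 to Sptlc1 were 0.54 ± 0.02 higher on the log2 scale in the Zc3h10 shRNA cultures, the most even difference among the 18 pairs. The alternative subunit gene Sptlc3 read 36.1, 42.3 and 46.1 units in the Zc3h10 shRNA cultures against 46.2, 75.5 and 62.9 units in the scramble cultures. Its groups almost touched, and its change of −0.55 ± 0.18 did not pass (adjusted p = 0.116) except without scramble replicate 1 (−0.74, adjusted p = 0.0265). Sptlc2 kept its call without scramble replicate 3 (adjusted p = 0.0425) and lost it without any other single array (0.0616 to 0.0848).

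The ORMDL proteins restrain serine palmitoyltransferase when ceramide is plentiful, and of their 3 genes 1 rose and 1 fell. Ormdl2 read 353, 372 and 375 units in the Zc3h10 shRNA cultures against 524, 519 and 547 units in the scramble cultures, a change of −0.53 ± 0.08 (1.45-fold lower, limma adjusted p = 0.00631). Ormdl1 read 48.5, 55.7 and 60.3 units in the Zc3h10 shRNA cultures against 38.6, 43.2 and 35.1 units in the scramble cultures, a rise of 0.49 ± 0.12 (1.41-fold, adjusted p = 0.0386). Its signal was low, and with 32 units added before log2 the change was 0.29. Ormdl3 read 177, 168 and 172 units in the Zc3h10 shRNA cultures against 203, 207 and 236 units in the scramble cultures and did not pass (−0.32 ± 0.09, adjusted p = 0.0788). None of the 3 genes had overlapping groups. Minus the change of Ormdl3, that of Ormdl1 was 0.81 ± 0.18 and that of Ormdl2 was −0.21 ± 0.07. Ormdl1 passed without Zc3h10 shRNA replicate 1 (adjusted p = 0.0330) but not without any other single array (0.0526 to 0.131).

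Between base and ceramide, 0 of 3 genes passed (limma), and 0 had an unadjusted p under 0.05. Kdsr, the reductase that follows serine palmitoyltransferase, was at 0.13 with a 95% confidence interval of −0.08 to 0.33. Degs1, the desaturase that turns dihydroceramide into ceramide, was at 0.02 with overlapping groups and a 95% confidence interval of −0.18 to 0.22. Degs2, which also hydroxylates dihydroceramide to phytoceramide, was at −0.16 ± 0.17 and within background.

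Ceramide synthases attach fatty acyl groups of preferred chain lengths, and their genes split. Cers6, which prefers palmitoyl-CoA, read 449, 449.5 and 440.5 units in the Zc3h10 shRNA cultures against 273, 281 and 275 units in the scramble cultures. The replicates lay close together in both groups, with no overlap between them. The change was 0.69 ± 0.08 (1.61-fold higher, limma adjusted p = 0.00189). Cers4, which prefers longer saturated chains, read 69.3, 76.3 and 74.6 units in the Zc3h10 shRNA cultures against 116, 121 and 117 units in the scramble cultures, a change of −0.68 ± 0.09 (1.61-fold lower, adjusted p = 0.00255). The groups of Cers4 did not overlap either.

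Cers5, which like Cers6 prefers palmitoyl-CoA, read 314, 243 and 273 units in the Zc3h10 shRNA cultures against 267, 246 and 253 units in the scramble cultures. Its groups overlapped, and its change of 0.11 ± 0.11 did not pass (limma adjusted p = 0.662). The change of Cers5 minus that of Cers6 was −0.58 ± 0.12. Cers2, the broadly expressed synthase of very long-chain ceramides, read 305, 297 and 312 units in the Zc3h10 shRNA cultures against 312, 318 and 327 units in the scramble cultures, which lay just above. Its change was −0.07 with a 95% confidence interval of −0.26 to 0.12, and it exceeded that of Cers4 by 0.62 ± 0.06. A dimmer probe set of Cers2 read −0.04 ± 0.16.

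The promoter windows of Ugcg, Acer2, Cers6 and Cers4 are shown because these genes had the largest changes with a listed window (Ugcg up, Acer2 down) or were the ceramide synthases that moved oppositely. Each window spans 250 bases before to 50 bases after the start, on the plus strand of GRCm38.p6, and comes from RefSeq. They lie at chr4:59189300-59189599 (Ugcg), chr4:86874164-86874463 (Acer2), chr2:68861191-68861490 (Cers6) and chr8:4493155-4493454 (Cers4). Capitals mark every match, on either strand, to the motifs searched.
Ugcg: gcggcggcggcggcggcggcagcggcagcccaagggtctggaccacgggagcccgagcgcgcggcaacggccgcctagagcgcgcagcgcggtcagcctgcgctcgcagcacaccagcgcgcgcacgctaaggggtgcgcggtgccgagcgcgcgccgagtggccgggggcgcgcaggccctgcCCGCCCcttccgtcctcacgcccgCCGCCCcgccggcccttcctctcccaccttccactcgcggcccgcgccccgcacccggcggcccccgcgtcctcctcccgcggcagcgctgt
Acer2: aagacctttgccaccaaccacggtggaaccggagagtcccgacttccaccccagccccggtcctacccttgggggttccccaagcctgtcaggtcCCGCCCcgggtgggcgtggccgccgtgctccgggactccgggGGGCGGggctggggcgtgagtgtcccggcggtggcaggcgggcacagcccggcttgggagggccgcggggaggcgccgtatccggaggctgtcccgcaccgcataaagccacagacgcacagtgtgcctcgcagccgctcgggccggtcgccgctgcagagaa
Cers6: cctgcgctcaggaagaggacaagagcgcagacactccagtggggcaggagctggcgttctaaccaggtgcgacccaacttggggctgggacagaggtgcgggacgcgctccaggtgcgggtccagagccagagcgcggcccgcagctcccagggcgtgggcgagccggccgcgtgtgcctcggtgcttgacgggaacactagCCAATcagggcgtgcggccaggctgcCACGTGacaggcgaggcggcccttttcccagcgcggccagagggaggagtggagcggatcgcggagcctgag
Cers4: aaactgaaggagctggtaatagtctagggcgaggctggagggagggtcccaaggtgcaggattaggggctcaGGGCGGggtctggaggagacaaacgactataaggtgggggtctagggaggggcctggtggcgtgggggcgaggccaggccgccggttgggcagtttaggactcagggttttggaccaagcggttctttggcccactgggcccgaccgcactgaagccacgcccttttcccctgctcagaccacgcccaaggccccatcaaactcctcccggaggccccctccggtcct

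The motifs were the GC box GGGCGG, the CCAAT box, named by its letters, the TATA box TATAAA, the E-box CACGTG, the AP-1 element TGANTCA, the C/EBP element TTGCNNCAA and the nuclear receptor element AGGTCA, each looked for on both strands. The window of Ugcg holds 2 GC boxes (first base at −66 and −42 from the start), Acer2 holds 2 (−155 and −113) and Cers4 holds 1 (−178), while Cers6 holds a CCAAT box (−48) and an E-box (−22). A GC box is in 35.9% of all 27025 windows (the first listed start of each gene) and in 23 of the 33 sphingolipid windows, a CCAAT box in 37.9% and 11, and an E-box in 7.24% and 6. The TATA box is in 14.2% of all windows and 1 sphingolipid window, the AP-1 element in 7.93% and 1, the C/EBP element in 2.12% and 0, and the nuclear receptor element in 16% and 7. The 33 windows have a median GC content of 63.0%, against 52.7% over all windows, and the 4 shown have 81.3% (Ugcg), 73.0% (Acer2), 70.0% (Cers6) and 64.3% (Cers4). These matches describe the letters only and say nothing of binding.

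Ugcg, the enzyme that adds glucose to ceramide and so opens glycosphingolipid synthesis, rose in the Zc3h10 shRNA cultures. It read 182, 181 and 178 units in the Zc3h10 shRNA cultures against 86.7, 100.0 and 83.3 units in the scramble cultures. The 3 Zc3h10 shRNA values were nearly equal and well above every scramble value. Means were 180.5 ± 1.89 and 90.0 ± 8.85 units (SD, n = 3 each), a log2 change of 1.01 ± 0.10 (2.01-fold higher, limma adjusted p = 0.00103).

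The sphingomyelin synthases transfer phosphocholine onto ceramide. Sgms2, which acts largely at the plasma membrane, read 103, 122 and 104 units in the Zc3h10 shRNA cultures against 86.0, 77.4 and 65.6 units in the scramble cultures, a change of 0.53 ± 0.13 (1.44-fold higher, limma adjusted p = 0.0361). The Golgi enzyme gene Sgms1 read 67.8, 64.1 and 62.8 units in the Zc3h10 shRNA cultures against 64.8, 70.2 and 66.5 units in the scramble cultures. Its groups overlapped, with a change of −0.05 and a 95% confidence interval of −0.25 to 0.15. Ceramide kinase, Cerk, had a difference of 0.24 ± 0.10, which missed the threshold (adjusted p = 0.218). The call for Sgms2 held without scramble replicate 1 (adjusted p = 0.0339) and was lost without any other single array (0.0623 to 0.117).

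Smpd3 showed the largest rise. This gene encodes a neutral sphingomyelinase of the plasma membrane and Golgi that releases ceramide from sphingomyelin, takes part in exosome formation and is needed for bone mineralisation in mice. It read 89.2, 100.2 and 122 units in Zc3h10 shRNA cultures 1 to 3, against 32.8, 29.8 and 37.4 units in scramble cultures 1 to 3. Even the lowest Zc3h10 shRNA culture was far above the highest scramble culture. Group means were 104 ± 16.6 and 33.3 ± 3.80 units (SD, n = 3 each), a log2 change of 1.63 ± 0.14 (3.10-fold higher, limma adjusted p = 0.000727). The scramble signal was low, and with 32 units added before log2 the change was 1.05. Of 9 bone and cartilage markers measured, 3 fell (limma), against 6.6% of all named genes. These were Ibsp (3.09-fold lower, adjusted p = 0.00171), Alpl (1.57-fold lower, adjusted p = 0.0208) and Bglap (1.41-fold lower, adjusted p = 0.0162, limma). Bglap lay within background in both groups, as did Sp7, Acan, Matn3 and Comp, which did not pass. In the Zc3h10 shRNA cultures Ibsp lay at the background limit (log2 mean of 4.37), so its fold is uncertain. The 9 markers summed to 925 to 994 units in the Zc3h10 shRNA cultures against 982 to 1139 units in the scramble cultures. Most of that was Sox9, which did not pass (means of 740 and 769 units). The part of these markers in the Smpd3 result was not tested.

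The acid, lysosomal sphingomyelinase gene Smpd1 fell. It read 169.7, 219 and 211 units in the Zc3h10 shRNA cultures against 263, 285 and 323 units in the scramble cultures, with no overlap. Its log2 change was −0.54 ± 0.13 (1.45-fold lower, limma adjusted p = 0.0362). That call did not survive the loss of any single array, with adjusted p between 0.0501 and 0.117, although the change stayed between −0.61 and −0.43. Smpd2, another neutral sphingomyelinase gene, read 89.3, 90.0 and 78.7 units in the Zc3h10 shRNA cultures against 98.5, 109.9 and 111 units in the scramble cultures and did not pass (−0.31 ± 0.10, adjusted p = 0.105). Smpd4, a neutral sphingomyelinase gene of the endoplasmic reticulum and nuclear envelope, read 122, 100.5 and 121 units in the Zc3h10 shRNA cultures against 126, 127 and 140.5 units in the scramble cultures, and did not pass either (−0.20 ± 0.11, adjusted p = 0.355). The change of Smpd3 exceeded that of Smpd1 by 2.17 ± 0.12, that of Smpd2 by 1.94 ± 0.22 and that of Smpd4 by 1.83 ± 0.16 (log2, SE of the per-array ratios). With 32 units added before log2 these shrank to 1.53 (Smpd3 minus Smpd1), 1.28 (Smpd3 minus Smpd2) and 1.21 (Smpd3 minus Smpd4).

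Smpdl3a and Smpdl3b encode phosphodiesterases related to acid sphingomyelinase, and neither passed. Smpdl3a was at −0.30 ± 0.11 (adjusted p = 0.137), but its dimmer probe set read 0.23 ± 0.17 with overlapping groups, so the direction depends on the probe set. Smpdl3b was at 0.28 ± 0.18 (adjusted p = 0.442).

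Among the ceramidases, which split ceramide into sphingosine and a fatty acid, Acer2 had the largest fall of all 36 genes. Acer2 encodes the Golgi alkaline ceramidase. It read 142, 115 and 81.9 units in Zc3h10 shRNA cultures 1 to 3, against 403, 407 and 383 units in scramble cultures 1 to 3. The Zc3h10 shRNA cultures, all far below the scramble cultures, also varied more among themselves. Means were 113 ± 30.2 and 398 ± 12.7 units (SD, n = 3 each), a log2 change of −1.85 ± 0.18 (3.61-fold lower, limma adjusted p = 0.00108).

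Acer3, an alkaline ceramidase gene of the endoplasmic reticulum and Golgi, read 65.9, 69.9 and 76.2 units in the Zc3h10 shRNA cultures against 90.0, 83.1 and 110.2 units in the scramble cultures. Its change of −0.41 ± 0.12 missed the threshold (limma adjusted p = 0.0859), and the change of Acer2 minus that of Acer3 was −1.44 ± 0.33. The neutral ceramidase gene Asah2 was at −0.26 ± 0.09 (adjusted p = 0.114), also without overlap between groups. Acid ceramidase, Asah1, the lysosomal enzyme, was at 0.10 ± 0.11 with a 95% confidence interval of −0.14 to 0.35. The epidermal ceramidase gene Acer1, at −0.18 ± 0.13, was within background.

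Among the genes of sphingosine 1-phosphate turnover, the lyase gene fell and the kinase genes did not pass. Sgpl1, the lyase that irreversibly removes sphingosine 1-phosphate, read 404, 379 and 411 units in the Zc3h10 shRNA cultures against 555, 600.1 and 589.6 units in the scramble cultures. All 3 Zc3h10 shRNA values lay below all 3 scramble values, with means of 398 ± 17.3 and 582 ± 23.6 units (SD, n = 3 each) and a change of −0.55 ± 0.09 (1.46-fold lower, limma adjusted p = 0.00666). The sphingosine kinase gene Sphk1 was at 0.10 with a 95% confidence interval of −0.12 to 0.32. Its signal was dim, with log2 means of 4.90 (Zc3h10 shRNA) and 4.80 (scramble), not far above the background limit of 4.37. Sphk2, the other kinase gene, was at 0.04 (−0.15 to 0.23). The change of Sphk1 minus that of Sphk2 was 0.06 ± 0.09 (two-sided exact permutation p = 0.8). Sgpp1, a phosphatase gene that returns sphingosine 1-phosphate to sphingosine, was at 0.24 ± 0.10 without overlap between groups and did not pass (adjusted p = 0.226). The related phosphatase gene Sgpp2, at 0.02 ± 0.14, was within background.

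Of the receptors, S1pr1 and S1pr2 rose. S1pr2, a G protein-coupled receptor gene, read 182, 173 and 168 units in the Zc3h10 shRNA cultures against 105, 115 and 113 units in the scramble cultures, a change of 0.65 ± 0.09 (1.57-fold higher, limma adjusted p = 0.00336). S1pr1, which couples to inhibitory G proteins, read 117, 131 and 151 units in the Zc3h10 shRNA cultures against 90.3, 86.5 and 84.9 units in the scramble cultures, a change of 0.60 ± 0.11 (1.52-fold higher, adjusted p = 0.0131). Neither receptor had overlapping groups. The call for S1pr1 was lost without scramble replicate 2 (adjusted p = 0.0533) or 3 (0.0520). Their changes differed by −0.05 ± 0.16 (S1pr1 minus S1pr2, exact permutation p = 1), an error too wide to show that they moved alike. S1pr3 read 31.3, 21.3 and 27.8 units in the Zc3h10 shRNA cultures against 26.5, 20.1 and 22.1 units in the scramble cultures. Its groups overlapped, with a difference of 0.22 (95% confidence interval −0.16 to 0.60). The S1pr3 signal was dim too, with log2 means of 4.73 (Zc3h10 shRNA) and 4.51 (scramble) against the background limit of 4.37. Markers of endothelial cells, which are known for high S1pr1, summed to 71.3 to 75.7 units in the Zc3h10 shRNA cultures against 67.1 to 76.4 units in the scramble cultures. Each of these 5 markers lay under the background limit in both groups, and their part in the S1pr1 result was not tested.

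Leaving out each array in turn and 11 other processing settings gave 17 further results for each changed gene. Cers6, Ugcg, Smpd3, S1pr2, Ormdl2, Cers4, Acer2 and Sgpl1 passed in all 17 of them. S1pr1 passed in 14, and Sptlc2, Ormdl1, Sgms2 and Smpd1 each passed in 10. With 1 array left out, 4 to 6 of the sphingolipid genes rose and 4 to 5 fell, the fewest rising (4) without scramble replicate 2, and 5 rising without scramble replicate 3 or Zc3h10 shRNA replicate 2 or 3.

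**Figure D4:**
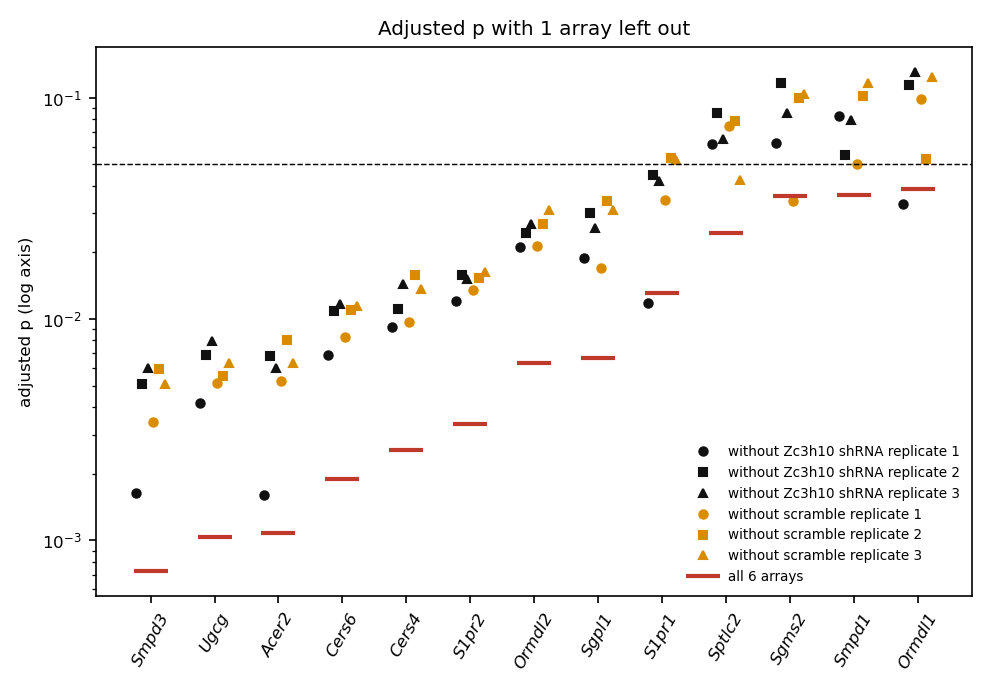
Adjusted p from limma (vertical log axis) of the 13 changed sphingolipid genes with all 6 arrays (red bars) and with each array left out (black symbols for a Zc3h10 shRNA array, orange for a scramble array), with the 0.05 threshold as a dashed line. All symbols of 8 genes lie below the line, while S1pr1, Sptlc2, Sgms2, Smpd1 and Ormdl1 have symbols above it.

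The 23 genes that did not pass ranged from −0.55 (Sptlc3) to 0.28 (Smpdl3b), with adjusted p between 0.0788 and 0.969 (limma). Of these, 11 were above 0, and 10 had groups that did not overlap, which was so for 31.9% of all named genes.

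Other genes of sphingolipid metabolism and of its fatty acyl supply, 48 measured of 53 listed, included 2 that rose and 8 that fell. The shares over all genes were the same 5.51% and 6.6%. The falls lay mainly in the supply of fatty acyl chains, which ceramide synthases draw on. Elovl3, an elongase of saturated and monounsaturated acyl chains, read 121, 93.0 and 105 units in the Zc3h10 shRNA cultures against 382, 488 and 505 units in the scramble cultures (−2.11 ± 0.14, limma adjusted p = 0.000658). The elongase genes Elovl4 (−1.20 ± 0.14) and Elovl6 (−0.59 ± 0.10) fell too, as did Hsd17b12 (−0.99 ± 0.11), Hacd2 (−0.81 ± 0.12) and Tecr (−0.66 ± 0.11), which encode the later enzymes of the elongation cycle. In the same list of 18 measured genes only Hacd4, of the dehydratase family, rose (1.45 ± 0.16).

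Of 13 genes of glycosphingolipid synthesis and transfer, 1 rose, against 5.51% of all named genes. It was the lactosylceramide synthase gene B4galt5 (0.50 ± 0.08, limma adjusted p = 0.00827). Of 10 measured genes of lysosomal breakdown, 2 fell, against 6.6% of all named genes. These were Gm2a, a ganglioside activator protein (−0.96 ± 0.10), and Galc, the galactosylceramidase (−0.43 ± 0.10, adjusted p = 0.0342). The call for Galc was lost whichever single array was left out (adjusted p of 0.0589 to 0.115). Of 5 genes of sphingosine 1-phosphate export, carriage and other receptors and 2 other sphingomyelinase genes, 0 passed (limma), and 0 had an unadjusted p under 0.05.

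**Figure D5:**
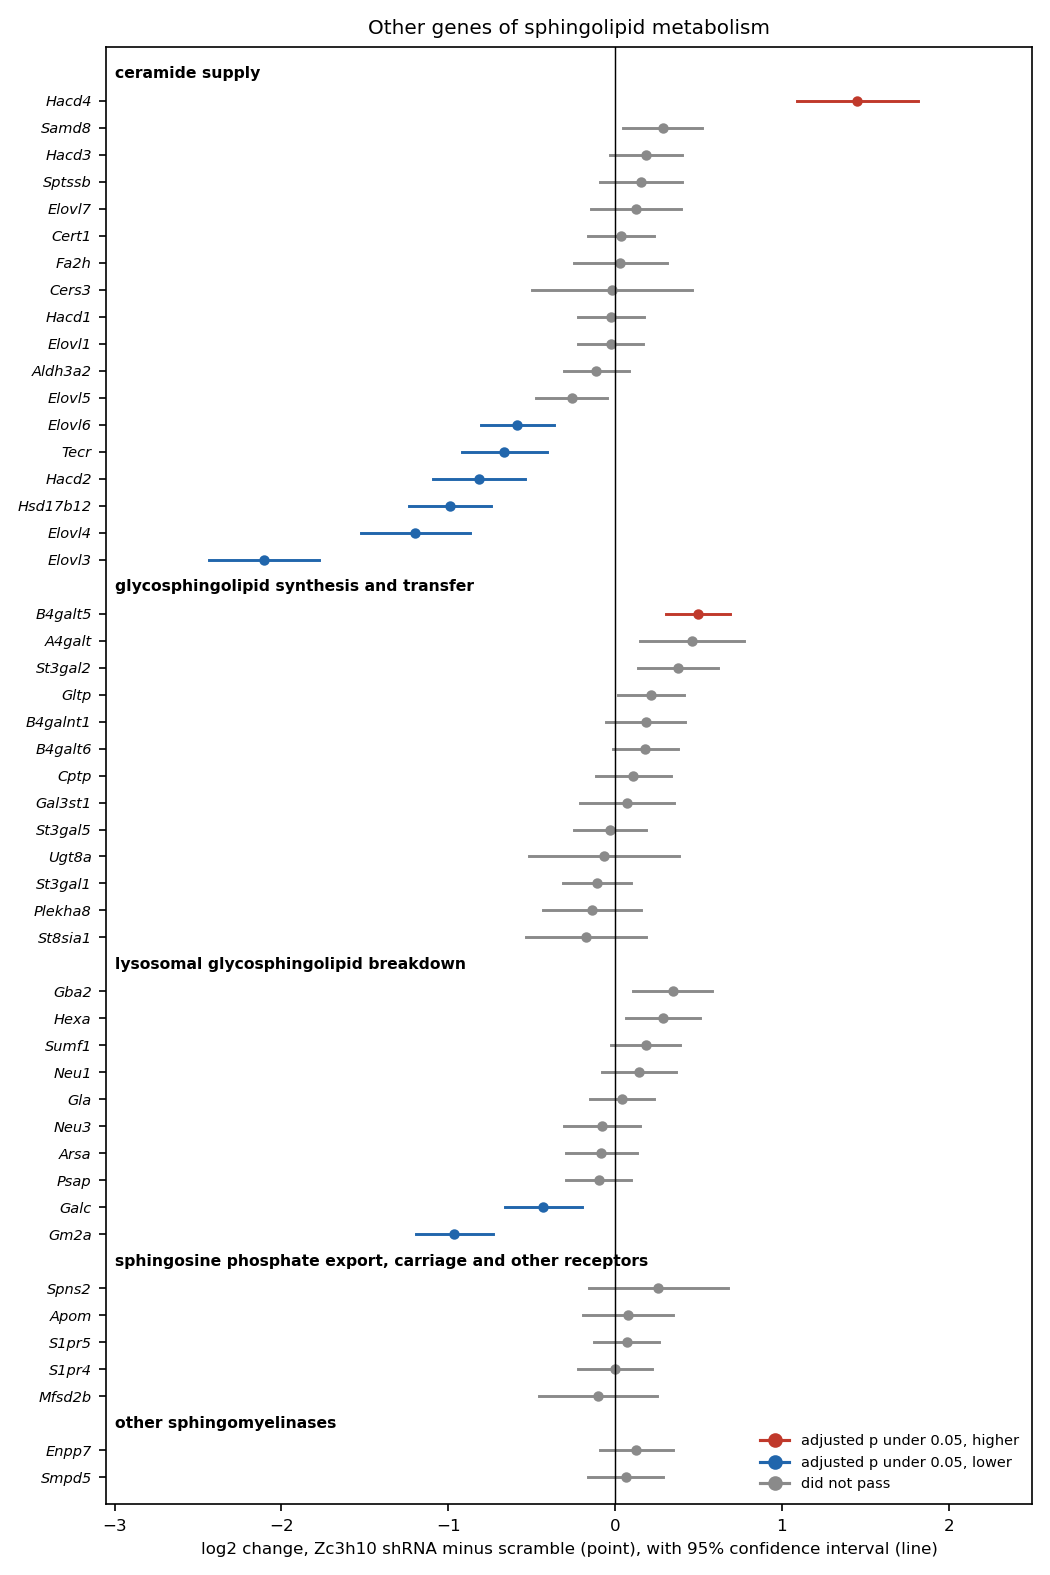
Log2 change (Zc3h10 shRNA minus scramble, horizontal axis) of the 48 other measured genes of sphingolipid metabolism and its fatty acyl supply, grouped by role. Points carry 95% confidence intervals from limma. Red marks the 2 genes that rose and blue the 8 that fell, with Elovl3 lowest at −2.11 and Hacd4 highest at 1.45.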

How the data were processed

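The deposited table holds linear intensity per probe set, made by the authors from single-colour Affymetrix Mouse Gene ST arrays. The submitters' processing notes name Affymetrix Expression Console and Partek 6.6 without their roles, while the sources used here do not give the background correction, normalization or genome build. From these intensities, log2 values were compared (Zc3h10 shRNA minus scramble, 3 arrays each) by moderated linear models, using limma 3.58.1 under R 4.3.3, with Benjamini-Hochberg adjustment over all 33079 probe sets and a threshold of 0.05. The number of arrays limits the precision. Of the probe sets, 23043 carry 1 gene symbol, 1740 several and 8296 none, and only the first kind was named. Per-array values are given for members past the threshold whose groups do not overlap and for their partners in the 18 pairs, other members are given by their difference, and of other pathway genes those past the threshold are named. The members, lists and pairs were chosen with earlier results of these data known. Alternatives covered scaling, an added constant, filters, the prior, probe-set averaging, a replicate block and leaving out arrays.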

Additional observations from a re-analysis of the deposited data

How the results depend on the processing

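The 13 changed sphingolipid genes kept their direction under all 17 alternatives. The count of rising genes, 8, was 4 with an ordinary t statistic, which lost Sptlc2, Ormdl1, Sgms2 and S1pr1, and 4 to 6 with 1 array left out. The count of falling genes, 5, was 8 with 32 units added, 8 with an intensity trend in the prior and 9 without the dimmer 50% of the probe sets, settings that added Ormdl3 and Asah2 and, in some, Smpd2 or Acer3. The count of probe sets changed, 3238, was 1972 with the ordinary t statistic and 1807 to 2578 with 1 array left out, lowest without scramble replicate 2 and also lower without scramble replicate 3 (2030) or Zc3h10 shRNA replicate 2 (2068) or 3 (1959). Same-numbered arrays deviated from their group means with correlations of 0.08, −0.005 and 0.04, against −0.09 to 0.06 for differently numbered arrays. With 3 arrays a group, these values cannot decide whether the numbers pair the samples. With a replicate block 5 sphingolipid genes rose, without Sptlc2, Ormdl1 and Sgms2.

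Only values near 0 turned sign. Adding 32 units also shrank Sptlc3 to −0.34, Smpdl3a to −0.20, Smpdl3b to 0.13 and S1pr3 to 0.097, and the pairs Ormdl1 minus Ormdl3 to 0.56 and Cers2 minus Cers4 to 0.45. Sgpp2 was −0.0052 after quantile normalization, −0.0048 after median centring and −0.014 after cyclic loess, and −0.10 to 0.13 with 1 array left out. Degs1 was −0.0028 after median centring and −0.0046 to 0.049 with 1 array left out. With 1 array left out, Sphk1 minus Sphk2 ran from −0.021 to 0.12, and S1pr1 minus S1pr2 from −0.18 to 0.072. Of other pathway genes, 7 rose with 32 units added, 7 with the intensity trend and 6 without the dimmer 50%, against 2, counts that were added after the data were seen. Galc missed the threshold with the replicate block (adjusted p = 0.0592) and the ordinary t statistic (0.0848), and Tecr missed it with the ordinary t statistic (0.0551). The cause of these shifts was not tested. Dim signal limits Degs2, Acer1 and Sgpp2, while Sphk1, S1pr3, Smpdl3b and Zc3h10 lay not far above background.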
